A study of Mus musculus with 15 samples.

Results

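Odorant receptors are G protein-coupled receptors on the cilia of olfactory sensory neurons. Each mature neuron uses mainly 1 receptor gene, and an odorant that binds its receptor opens a cyclic AMP-gated channel and depolarises the cell. Active neurons phosphorylate ribosomal protein S6, so ribosomes precipitated with an antibody to phospho-S6 carry more of the receptor messages of the responding neurons. The 7 mouse receptor genes described here, Olfr1377, Olfr1047, Olfr1026, Olfr874, Olfr876, Olfr881 and Olfr922, were picked because their messages rose strongly with acetophenone and decanal and did not rise with octanal and cis-3-hexenol. They are 7 of 1108 intact Olfr genes in the table, of which 867 had enough counts to be tested, all 7 among them.

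The libraries came from the olfactory epithelium of wild-type male C57BL/6J mice, 8 weeks old, which spent 4 h in clean air and 90 min with their stimulus. The Control group saw empty filter papers. The A+D and A&D groups received acetophenone, an aromatic ketone, and decanal, a straight-chain aldehyde, and the O+C and O&C groups received octanal, also a straight-chain aldehyde, and cis-3-hexenol, an unsaturated alcohol, at 10 µL of each odorant. A plus sign stands for both odorants on the same paper and an ampersand for separate papers 1 mm apart. Each of the 5 groups had 3 biological replicates and all 15 libraries carry the same batch label. No group received a single odorant, so a response cannot be assigned to acetophenone or to decanal. The labels do not say whether a library is 1 mouse, so the errors measure the spread between these libraries. Total counts ran from 22704193 to 25287077, and Omp, the olfactory marker protein of mature sensory neurons, lay between 4205 and 10092 CPM in every library, where CPM is the count scaled to the library's size.

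Olfr874, Olfr876, Olfr881 and Olfr922 lie on chromosome 9, Olfr1047 and Olfr1026 lie on chromosome 2, and Olfr1377 lies on chromosome 11. In the receptor family names Olfr874 is MOR161-2, Olfr876 is MOR161-1, Olfr922 is MOR161-3, Olfr881 is MOR162-7, Olfr1047 is MOR188-3, Olfr1026 is MOR196-4 and Olfr1377 is MOR129-1. Coding sequences were taken from the GENCODE M21 transcripts (GRCm38). Olfr874 and Olfr876 were 88.9% identical over the alignment. The other 5 pairs on chromosome 9 were 69.8% to 71.3% identical, and the remaining pairs among the 7 were 53.3% to 59.3% identical. Over all pairs of tested receptors the median identity was 51.3%, and 2.42% of pairs reached 60%. The sequences below are of receptors that share most of their bases. In the first set such receptors differed in response. In the second set Olfr1377 and Olfr51 both rose, and Olfr1378 had too few counts to be tested. Each is 120 coding bases, 5′ to 3′, with capitals where the base differs from the first gene of the set. Each stretch was taken where the first 2 genes of its set differ most, so it is not typical of the genes. Olfr875 differs from Olfr874 at 14 of these 120 bases, against 41 of 930 over the coding sequence. Olfr51 differs from Olfr1377 at 25 of 120, against 100 of 921. The first set holds coding bases 495 to 614 (498 to 617 in Olfr877 and in Olfr922) of the MOR161 family.
Olfr874: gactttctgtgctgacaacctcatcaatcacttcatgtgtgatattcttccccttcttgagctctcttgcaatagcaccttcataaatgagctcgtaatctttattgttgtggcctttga
Olfr875: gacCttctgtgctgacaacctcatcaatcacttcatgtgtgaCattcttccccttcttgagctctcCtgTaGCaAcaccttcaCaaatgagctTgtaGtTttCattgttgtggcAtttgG
Olfr876: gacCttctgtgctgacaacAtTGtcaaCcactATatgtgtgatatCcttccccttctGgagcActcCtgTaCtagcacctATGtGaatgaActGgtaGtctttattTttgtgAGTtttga
Olfr145: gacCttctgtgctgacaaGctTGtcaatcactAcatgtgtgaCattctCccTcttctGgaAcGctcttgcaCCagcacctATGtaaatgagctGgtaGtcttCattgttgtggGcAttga
Olfr877: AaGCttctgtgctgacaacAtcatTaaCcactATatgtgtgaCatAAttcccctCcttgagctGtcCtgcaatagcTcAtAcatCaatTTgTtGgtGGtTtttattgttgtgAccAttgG
Olfr922: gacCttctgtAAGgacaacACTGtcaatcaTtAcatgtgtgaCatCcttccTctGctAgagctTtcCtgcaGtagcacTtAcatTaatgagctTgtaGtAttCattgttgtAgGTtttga

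The second set holds the first 120 coding bases of Olfr1377 and of the other MOR129 genes, which are its neighbours on the chromosome.
Olfr1377: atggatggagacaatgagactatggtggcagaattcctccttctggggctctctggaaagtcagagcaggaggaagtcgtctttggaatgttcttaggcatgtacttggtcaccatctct
Olfr51: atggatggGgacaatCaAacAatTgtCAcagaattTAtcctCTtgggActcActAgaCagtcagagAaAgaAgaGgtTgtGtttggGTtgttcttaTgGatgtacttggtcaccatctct
Olfr1378: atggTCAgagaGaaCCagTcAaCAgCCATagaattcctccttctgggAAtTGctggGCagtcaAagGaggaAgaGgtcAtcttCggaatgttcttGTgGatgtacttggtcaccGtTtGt

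The levels of the 7 receptors against Control chose them, so these levels and fold changes are a description and carry no test. Levels are CPM after library scaling, given in replicate order, and fold changes are log2 values ± SE from edgeR over all 15 libraries. In every receptor each of the 6 libraries with acetophenone and decanal lay above each of the 3 Control libraries. Among all genes tested, 8.13% had every A+D library above every Control library and 11.6% had every A&D library above it. The call used throughout is edgeR's quasi-likelihood test with an adjusted p under 0.05 over all 19229 genes. For the 7 receptors over Control it is largely fixed by how they were chosen, so nothing is read from its counts. By it 6 of the 7 stood higher in A+D, where 0.296% of all genes did and 0.0260% were lower. In A&D 7 of 7 stood higher, where 1.00% of all genes did and 0.0208% were lower. Olfr881 was the receptor without a call in A+D, and it had one without A+D 2. Leaving out any single Control library, or A&D 1, removed its call in A&D. In bulk libraries more responding cells and more message per cell cannot be told apart.

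Olfr1377 lay at 0.404, 0.997 and 0.785 CPM in Control, from raw counts of 10, 25 and 19. It stood at 12.9, 11.6 and 21.8 CPM in A+D and at 21.3, 24.9 and 12.8 CPM in A&D. The log2 fold change over Control was 4.40 ± 0.39 in A+D and 4.74 ± 0.39 in A&D. The A+D and A&D libraries overlapped. With octanal and cis-3-hexenol it lay at 0.517, 1.37 and 1.36 CPM in O+C and at 0.434, 0.328 and 0.267 CPM in O&C, so that every O+C library was above every O&C library.

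Olfr1047 had the largest A&D rise of the 7. Its Control libraries held 2, 5 and 7 counts, or 0.0808, 0.199 and 0.289 CPM. In A+D it stood at 2.69, 3.06 and 4.00 CPM and in A&D at 8.51, 7.02 and 4.94 CPM, and the lowest A&D library exceeded the highest A+D library. The log2 fold change was 4.06 ± 0.50 in A+D and 5.13 ± 0.50 in A&D. Its O+C levels of 0.603, 0.0803 and 0.156 CPM and O&C levels of 0.347, 0.246 and 0.178 CPM overlapped with Control.

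Olfr1026 lay at 0.687, 1.71 and 1.32 CPM in Control, at 12.8, 14.3 and 24.9 CPM in A+D and at 41.1, 31.4 and 17.4 CPM in A&D. The log2 fold change was 3.80 ± 0.40 in A+D and 4.59 ± 0.40 in A&D, or 3.98 in A&D without the libraries low in Obp2a described below. A&D 3 fell within the A+D range. Its O+C libraries, at 1.12, 0.522 and 1.01 CPM, overlapped with Control. In O&C it lay at 0.434, 0.656 and 0.312 CPM, and every Control library was above every O&C library, as was so for 19.6% of all genes.

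Olfr874 lay at 1.09, 0.718 and 1.32 CPM in Control, at 14.9, 9.21 and 16.3 CPM in A+D and at 27.7, 24.3 and 17.1 CPM in A&D. Its log2 fold change was 3.68 ± 0.29 in A+D and 4.46 ± 0.29 in A&D. Its A&D libraries were all above its A+D libraries. Its O+C levels ran from 0.387 to 0.778 CPM and its O&C levels from 0.490 to 0.737 CPM, overlapping with Control. Olfr876, the near relative of Olfr874, was uneven in Control at 0.0404, 1.44 and 0.992 CPM, from 1, 36 and 24 counts. It stood at 5.96, 7.26 and 11.5 CPM in A+D and at 10.6, 15.1 and 8.97 CPM in A&D, overlapping ranges, with log2 fold changes of 3.31 ± 0.52 and 3.80 ± 0.52. Without Control 2 these were 3.99 and 4.48, and neither was called when only the groups compared were fitted. Its 6 libraries with octanal and cis-3-hexenol lay between 0.258 and 0.492 CPM, inside the wide Control range.

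Olfr881 had the widest spread for its mean in A+D and in A&D. It stood at 0.323, 0.518 and 0.289 CPM in Control and at 4.36, 0.930 and 6.49 CPM in A+D, where A+D 2 held 21 counts against 104 and 159 in the others. In A&D it stood at 10.6, 2.93 and 2.63 CPM, with A&D 1 at 249 counts against 68 and 66. The log2 fold change was 3.36 ± 0.77 in A+D and 3.82 ± 0.77 in A&D, or 2.86 ± 0.69 in A&D without A&D 1 and 2.75 ± 0.52 without the libraries low in Obp2a. In O+C it had 5, 0 and 5 counts, and every Control library lay above these, as was so for 15.2% of all genes. In O&C it lay between 0.134 and 0.492 CPM, overlapping with Control.

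Olfr922 was the exception to the pattern that chose the set. It lay at 0.121, 0.199 and 0.207 CPM in Control, at 1.51, 1.28 and 2.28 CPM in A+D and at 4.66, 2.93 and 4.11 CPM in A&D, with log2 fold changes of 3.23 ± 0.42 and 4.43 ± 0.42. In O&C it stood at 0.564, 0.451 and 0.445 CPM, from 13, 11 and 10 counts against 3, 5 and 5 in Control, so that the O&C libraries did not overlap with Control. Every O&C library exceeded every Control library in 20.3% of all genes. The log2 fold change in O&C was 1.44 ± 0.46, and Olfr922 was 1 of 7 with a call there, where 9.33% of all genes were called higher and 5.41% lower. That call was absent under 7 of 9 other settings and in each of 6 fits with a library of these groups left out. In O+C, where 5.74% of all genes were called higher and 2.35% lower, 0 of the 7 were called, and Olfr922 lay at 0.301, 0.161 and 0.467 CPM, overlapping with Control.

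**Figure D1:**
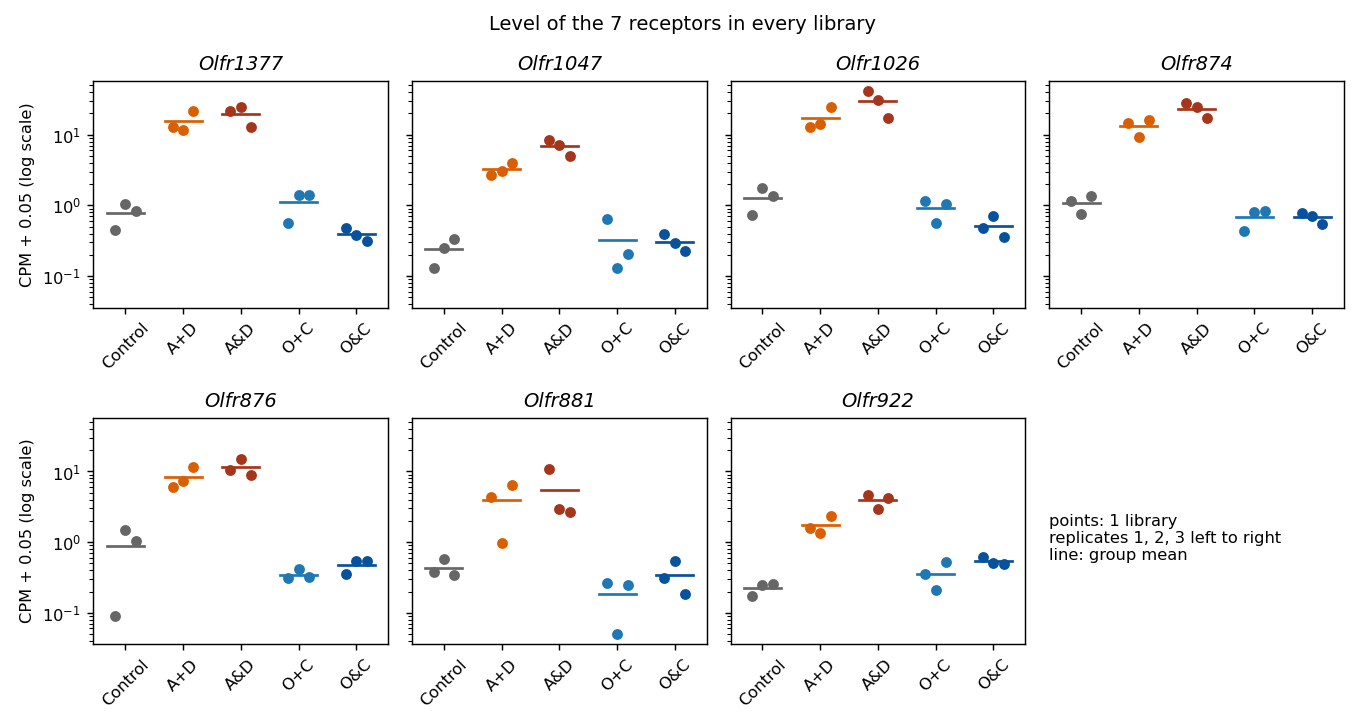
Level of each of the 7 receptors in every library, as CPM plus 0.05 on a log axis, by group; points are libraries in replicate order and lines are group means (n = 3). The A+D and A&D libraries lie above the Control libraries in every panel, and in Olfr881 the library A+D 2, at 0.930 CPM, lies nearest to Control.

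Across the 7, the order of group means put A&D first and A+D second in each receptor. The 2 groups did not overlap in Olfr1047, Olfr874 and Olfr922, as was so with A&D above for 3.74% of all genes, and overlapped in the other 4. The 3 lowest groups overlapped with their neighbours in the order in all 7 receptors. As a share of all receptor counts, the 7 together made up 0.137% ± 0.0383 in Control, 1.63% ± 0.352 in A+D and 2.11% ± 0.567 in A&D (mean ± SD, n = 3). They made up 0.0774% ± 0.0154 in O+C and 0.0556% ± 0.0165 in O&C. Receptors as a class took 0.341% ± 0.0293 of all counts in Control. Under O+C this was 0.468% ± 0.0148, under O&C 0.523% ± 0.0859, so the lower shares there are of a larger receptor total. Over the 867 receptors the median log2 fold change from Control was -0.33 for O+C, -0.39 for O&C. For the 7 these medians were -0.49 (3 of 7 above 0) and -0.72 (2 of 7 above 0). Whether the 7 fell more than receptors as a class was not tested. By log2 fold change the 7 ranked between 3 and 11 of 867 receptors in A+D and between 2 and 16 in A&D. The smallest rises among them were 3.23 in A+D (Olfr922) and 3.80 in A&D (Olfr876), and the highest values with octanal and cis-3-hexenol were 0.80 in O+C and 1.44 in O&C, both of Olfr922. The receptors Olfr51, Olfr923 and Olfr145, also lay inside all 4 of these bounds. Just outside were Olfr983 (3.06 in A+D and 3.59 in A&D), Olfr744 (3.03 and 3.98) and Olfr901 (2.84 and 3.34).

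The libraries of a group differed in the same direction for most of the 7. A+D 3 was the highest A+D library for 7 of 7 receptors, against 19 of the 40 other receptors called higher in A+D (47.5%). A&D 3 was the lowest A&D library for 6 of 7, against 47 of 82 others (57.3%). A&D 1 was the highest for 5 of 7, against 44 of 82 others (53.7%). The 7 receptors are thus not independent readings of a group. Receptors as a class took 0.435% of the counts in A+D 3 and 0.320% in A+D 2, the extremes of that group. Obp2a, an odorant binding protein secreted by nasal glands, stayed below 10 CPM in 5 libraries, while the other 10 had 109 to 527 CPM. The 5 were 1 Control library (replicate 1), 1 from A+D (replicate 2), 1 from A&D (replicate 1) and 2 from O&C (replicates 1 and 3). The part of gland content in the receptor levels was not tested, beyond fits without these 5 libraries and fits with a term for them.

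The comparison of A&D with A+D asks whether it mattered that the odorants shared a paper. It was not used to choose the receptors, although it rests on the same libraries. Of the 7 receptors, 0 passed the test, where 0.120% of all genes (23 genes) were called higher in A&D and 0.00% lower. Among the 867 tested receptors 2.42% (21 receptors) were called higher and 0.00% lower. The adjusted p values of the 7 ran from 0.692 to 0.994 (edgeR), and 4 of the 7 had an unadjusted p under 0.05, as had 752 of the 19229 genes. All 7 differences were above 0, with a median of 0.77 on the log2 scale, against 0.08 over the 867 receptors, of which 57.8% were positive. The largest was that of Olfr922, at 1.20 ± 0.33 (95% interval 0.51 to 1.89, unadjusted p = 0.00189, edgeR). Next were Olfr1047 at 1.07 ± 0.37 (0.28 to 1.86), Olfr1026 at 0.79 ± 0.32 (0.10 to 1.48) and Olfr874 at 0.77 ± 0.24 (0.27 to 1.28). The intervals of Olfr876 (-0.44 to 1.42), Olfr881 (-0.89 to 1.80) and Olfr1377 (-0.29 to 0.98) included 0. Without A&D 1, 6 of 7 were positive and Olfr881 stood at -0.50. Most of the 867 receptors were not responders, as 10.3% were called higher in A&D over Control. A higher level in A&D was not particular to the 7. Olfr744, Olfr983 and Olfr901, just outside their bounds, stood higher by 0.95, 0.53 and 0.49. Inside the bounds Olfr145 was higher in A&D (4.37 over Control, against 3.86 in A+D). Olfr51 (6.02 against 6.13) and Olfr923 (mean 22.5 against 23.1 CPM) were not.

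Omp averaged 5739 ± 559 CPM in A+D and 7185 ± 1065 CPM in A&D (SD, n = 3), and receptors as a class took 0.386% ± 0.0595 and 0.469% ± 0.0155 of the counts. When TMM was computed on receptor genes, the 7 differences had a median of 0.65 and ran from 0.22 to 1.09. With a term for the libraries low in Obp2a the median was 0.79 and 7 of 7 were positive. Without these 5 libraries the median was 0.41 and 6 of 7 were positive, with Olfr881 at -0.96.

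**Figure D2:**
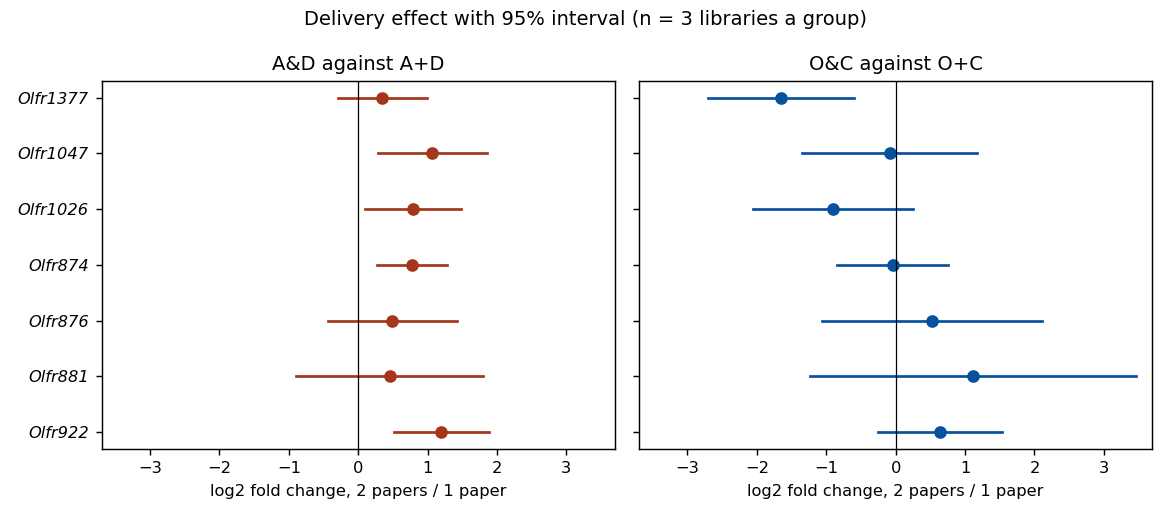
Log2 fold change between delivery on separate papers and on a shared paper for the 7 receptors, for acetophenone and decanal on the left and octanal and cis-3-hexenol on the right; points are edgeR estimates and lines their 95% intervals. All 7 points on the left are above 0 and 4 intervals there exclude it, while on the right only the interval of Olfr1377 does.

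Delivery of octanal and cis-3-hexenol gave calls in 0 of the 7 and in 0.00% of all genes in either direction by edgeR, with 766 genes at an unadjusted p under 0.05. By DESeq2 6 genes were called higher and 3 lower, with 0 of the 7 among them, and with no count filter 114 genes were called higher and 90 lower, with 1 of the 7 among them, Olfr1377. Olfr1377 was lower in O&C than in O+C by a log2 difference of -1.65 ± 0.50 (unadjusted p = 0.00411, adjusted p = 0.9995, edgeR), from 12, 34 and 35 counts in O+C to 10, 8 and 6 in O&C. Its groups did not overlap, as was so for 5.91% of all genes. The other 6 differences ran from -0.90 (Olfr1026) to 1.11 (Olfr881) and their intervals included 0. The difference between both delivery effects, tested as an interaction, was 2.00 ± 0.58 for Olfr1377 and 1.69 ± 0.63 for Olfr1026 (unadjusted p = 0.00325 and 0.0167, edgeR). It passed the adjusted threshold in 0 of the 7, with 0.0104% of all genes and 0.115% of receptors called, and 517 genes had an unadjusted p under 0.05.

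Close relatives of the 7 split between responders and receptors without a call. Of the 14 other tested receptors at least 80% identical to one of the 7, 7 were called higher in A+D and 8 in A&D, against 5.31% and 10.3% of all tested receptors. In the band from 70% to 80% identity it was 1 of 13 in both groups. From 60% to 70% it was 5 and 12 of 102 receptors, and below 60% it was 27 and 61 of 729. The median log2 fold change in A&D was 2.19 in the closest band and -0.05 in the most distant one. Of the 14, 0 were called higher in O+C or O&C, against 11.4% and 15.6% of tested receptors. In O&C 6 of the 14 were called lower, against 8.19% of tested receptors. The median log2 fold change in O&C was -0.80 over the 14 and -0.39 over all tested receptors. Both closest bands hold under 20 receptors, many of them in shared gene clusters, and without the libraries low in Obp2a the count in A&D was 5 of 14.

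**Figure D3:**
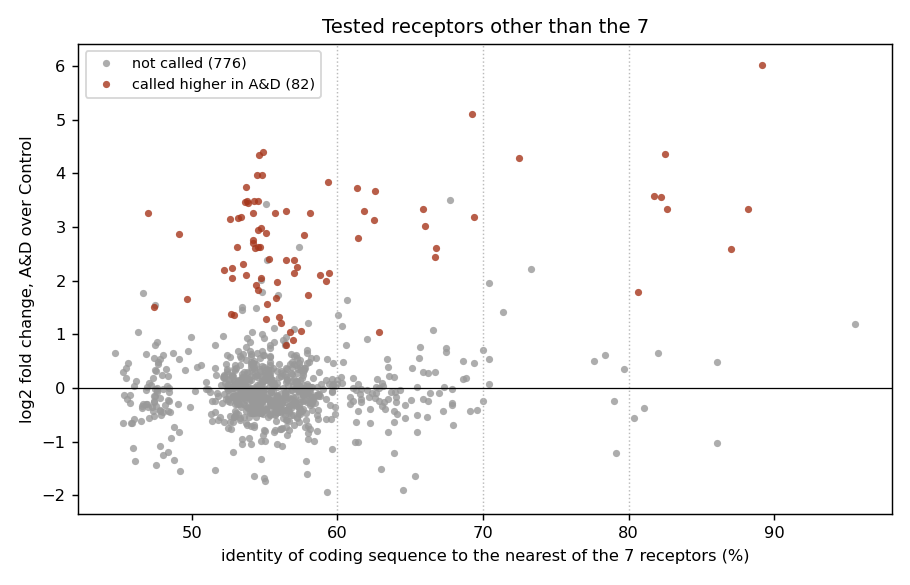
Identity of each tested receptor's coding sequence to the nearest of the 7 (per cent, horizontal) against its log2 fold change in A&D over Control (vertical), with dotted lines at 60%, 70% and 80%; red points were called higher. To the right of 80% called and uncalled receptors stand side by side, 8 of 14 called, and the receptor nearest in sequence, at 95.6%, is not called.

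The receptor nearest in sequence to any of the 7 was not called over Control in A+D or in A&D. Olfr875, the chromosome neighbour of both Olfr874 and Olfr876, differs from Olfr874 at 41 of 930 coding bases, in 37 of 310 codons, of which 18 change the residue. It lay at 1.17, 1.16 and 0.950 CPM in Control, at 0.629, 0.487 and 0.653 CPM in A+D and at 3.46, 2.28 and 1.75 CPM in A&D. All A+D libraries were below, and all A&D libraries above, every Control library. Every A&D library lay above every Control library in 11.6% of all genes, and the share with every A+D library below was not computed. The log2 fold change was -0.88 ± 0.39 in A+D (adjusted p = 0.339) and 1.19 ± 0.36 in A&D (adjusted p = 0.155, edgeR), neither past the threshold. The difference between them, 2.07 ± 0.39, was past it (adjusted p = 0.0404, edgeR). It was not when A+D 1, A+D 2, A+D 3, A&D 1 or A&D 2 was left out (adjusted p from 0.121 to 0.353), nor under 4 of 9 other settings. In O&C it fell by 1.71 on the log2 scale (± 0.42, adjusted p = 0.0109, edgeR).

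The other genes of the MOR161 family went both ways. Olfr145, which differs from Olfr874 at 163 of 930 coding bases, rose from 0.606, 0.558 and 1.45 CPM in Control to 8.27, 11.2 and 18.6 CPM in A+D and 24.5, 18.1 and 11.3 CPM in A&D. Its log2 fold change was 3.86 ± 0.48 in A+D and 4.37 ± 0.48 in A&D (adjusted p = 5.54e-04 and 6.62e-05, edgeR). Without the libraries low in Obp2a it was not called in either (adjusted p = 0.132 and 0.0558). Olfr877, next to Olfr876 and 77.6% identical to Olfr874, was close to Control with 0.24 ± 0.62 in A+D and 0.50 ± 0.61 in A&D. So 4 of the 6 genes in this family, 3 of them chosen for it, had fold changes over 3 on the log2 scale in A+D and A&D. Counts of Olfr874, Olfr875 and Olfr876 were whole numbers in 13 of 15 libraries each, and those of Olfr145, Olfr877 and Olfr922 in all 15. Whole means within 0.0005 of a whole number, and a fractional count shows that some reads were divided between genes. Divided reads were not confined to this family. Olfr1377 and Olfr1026 were whole in 12 of 15 libraries, and Olfr1047 and Olfr881 in all 15. Of other genes named here, Olfr901, Olfr923 and the pseudogene Olfr1025-ps1 were whole in 12, Olfr51 in 13, Olfr889 and Olfr744 in 11 and Olfr376 in 7. Olfr890, Olfr983, Olfr1087, Olfr160 and Olfr1104 were whole in all 15.

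Olfr1377 has 2 family members beside it on chromosome 11. Olfr51, 89.1% identical, had 0, 0 and 1 counts in Control, 31, 35 and 26 in A+D and 41, 24 and 21 in A&D. The ratio of its share of all counts to that in Control was 93.0 in A+D (95% counting interval 16.3 to 3712) and 84.8 in A&D (14.8 to 3388). It passed the test in both (adjusted p = 0.00106 and 6.40e-04, edgeR). Olfr1378, 88.1% identical to Olfr1377, had too few counts to be tested, with totals of 15 in Control, 25 in A+D and 4 in A&D.

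On chromosome 9 the MOR162 family of Olfr881 held 6 other tested receptors, of which 4 were called higher in both A+D and A&D. These were Olfr889 (2.80 ± 0.33 in A+D and 3.33 ± 0.33 in A&D), Olfr890 (2.86 ± 0.58 and 2.59 ± 0.58), Olfr901 (2.84 ± 0.26 and 3.34 ± 0.27) and Olfr983 (3.06 ± 0.21 and 3.59 ± 0.21). Olfr884 and Olfr887 were not called. The call of Olfr890 was lost in A+D without any Control library, A+D 2 or A+D 3, and in A&D without any Control library, A&D 1 or A&D 2. Olfr901 and Olfr983 fell in O+C, by 1.04 and by 0.81 on the log2 scale, both past the test, where 3.69% of receptors were lower.

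On chromosome 2 Olfr1087, of the MOR188 family of Olfr1047 and 82.2% identical to it, had log2 fold changes of 2.63 ± 0.34 in A+D and 3.57 ± 0.35 in A&D, both past the test (adjusted p = 5.02e-04 and 5.44e-06, edgeR). Olfr1054 was called in A&D with 1.78 ± 0.41 (adjusted p = 0.0420, edgeR), a call that each of the 6 fits with a library left out took away (adjusted p from 0.0558 to 0.268). Olfr1090 was not called in either. Olfr1026 differed from the others in having no relative above 70% among the intact receptors. Pseudogenes were not aligned, so a closer pseudogene of Olfr1026 would have been missed. Its closest intact relative, Olfr1030, at 68.6%, stood at 0.26 ± 0.31 in A+D and 0.18 ± 0.31 in A&D. Olfr1023, another MOR196 receptor, was instead called higher with octanal and cis-3-hexenol, at 3.24 ± 0.55 in O+C and 2.63 ± 0.56 in O&C (adjusted p = 0.00154 and 0.00447, edgeR), and had 0.68 ± 0.64 in A+D and -0.42 ± 0.73 in A&D.

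**Figure D4:**
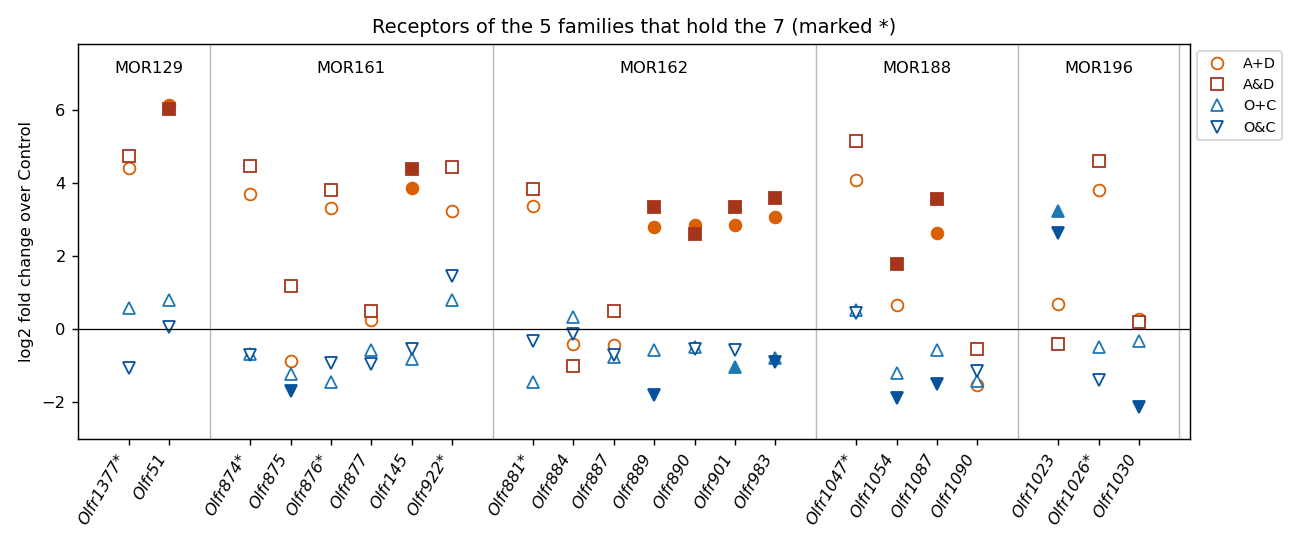
Log2 fold change over Control of the tested receptors in the 5 families that hold the 7, which are marked with an asterisk and drawn open because they were chosen on these values; filled symbols are other receptors that passed the edgeR test. Within MOR161, Olfr145 lies with the chosen receptors and Olfr875 and Olfr877 do not, and in MOR196 only Olfr1023 is filled above 0, with octanal and cis-3-hexenol.

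Intact receptors next to the 7 on the chromosome were followed in the same way. Of 13 neighbouring intact receptors 10 were tested, and 2 were called higher in A+D and 3 in A&D, against 5.31% and 10.3% of all tested receptors, with median log2 fold changes of 0.26 and 0.60. The 2 called in both were Olfr51 and Olfr923, the neighbour of Olfr922. Olfr923 rose from 0.606, 0.798 and 0.537 CPM in Control to 28.2, 12.0 and 29.2 CPM in A+D and 25.4, 24.5 and 17.6 CPM in A&D. Olfr160, the neighbour of Olfr874 and known as M72, an acetophenone receptor, was the third. It stood at 1.71 ± 0.39 in A+D (adjusted p = 0.0806, or 0.0372 without A+D 1) and rose by 2.61 ± 0.39 in A&D (adjusted p = 7.32e-04, edgeR). Olfr921, on the other side of Olfr922, stood at -0.05 ± 0.24 and -0.24 ± 0.24.

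The receptors whose pattern over the 15 libraries was most like the centred mean of the 7, on log2(CPM + 0.5), were Olfr744, Olfr901, Olfr1104, Olfr376 and Olfr145, with Pearson r from 0.981 to 0.985. In the levels of the 7 the libraries fall into 2 sets, with and without acetophenone and decanal, so r mostly restates that split. By Spearman's rho 1 of these 5, Olfr744, was again among the highest 5. Outside the intact receptors the most alike was the pseudogene Olfr1025-ps1 (r = 0.976), followed by Nnmt, nicotinamide N-methyltransferase, at 0.870. Olfr1025-ps1 rose by 2.72 ± 0.33 in A+D and by 4.17 ± 0.34 in A&D (adjusted p = 2.43e-04 and 8.45e-07, edgeR). Its A&D level differed from A+D by 1.45 ± 0.29, which did not pass the test (adjusted p = 0.0681, edgeR). This difference did pass by DESeq2 (adjusted p = 4.76e-04), with no count filter, with a term for low Obp2a (0.0365) and without A&D 3 (0.0314).

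Receptor binding acts through the G protein subunit Gnal, adenylyl cyclase and a cyclic nucleotide-gated channel, and neuronal activity induces immediate early genes. Of 30 genes of the transduction and activity list, 1 was called higher in A+D and 7 were in A&D. With octanal and cis-3-hexenol 23 were called higher on a shared paper and 25 on separate papers. Over all genes 0.296%, 1.00%, 5.74% and 9.33% were called higher in these 4 comparisons. None of the 30 was called lower. The medians, in the same order, were 0.27, 0.44, 0.80 and 0.94 on the log2 scale, against medians over all genes between -0.04 and 0.02. The gene called in A+D was the potassium channel subunit Kcng1 (1.20). In A&D the calls were Kcng1 (1.87 ± 0.23), Lrrc3b (1.70 ± 0.23), the adhesion molecule Kirrel2 (1.12 ± 0.19), the immediate early gene Nr4a1 (1.10 ± 0.15), Sema7a, a semaphorin (0.93 ± 0.21), Omp (0.68 ± 0.14) and Gnal (0.48 ± 0.10). Mature neuron markers moved with the odour groups, with 0 of 11 called in A+D, 3 in A&D and 11 in both O+C and O&C. All 11 but Umodl1 are also in the list of 30, so these counts are not a separate observation. Omp and Gnal are among the 3 in A&D. Their summed level ran from 9117 to 9969 CPM in Control, from 9885 to 12711 in A+D, from 12380 to 14944 in A&D, from 14948 to 17458 in O+C and from 14649 to 19443 in O&C. Markers of other cells were called lower in O+C and O&C, where 2.35% and 5.41% of all genes were. In O+C these were 3 of 7 immune, 1 of 6 sustentacular, 1 of 5 horizontal basal and 1 of 4 ensheathing glia markers. In O&C they were 5 of 7 immune, 5 of 5 red blood cell, 3 of 6 sustentacular, 1 of 5 horizontal basal, 1 of 4 ensheathing glia and 1 of 4 respiratory ciliated markers. In A+D and A&D no marker of another cell type list was called. The part of cell make-up in the receptor values was not tested.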

How the data were processed

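RNA bound to phospho-S6 ribosomes was sequenced in 15 libraries. The deposited values are expected counts per Ensembl gene, not normalized. STAR 2.7.10b, Salmon 1.10.1, R 4.4.2 and GRCm39 are named, per the submitters' processing notes; the annotation and the use of strand are not given in the sources used here. Of 57010 identifiers 52029 matched a symbol. Counts were rounded, genes kept by filterByExpr (minimum count 10, 19229 genes), scaled by TMM and tested with edgeR 4.0.16 (R 4.3.3, robust quasi-likelihood F test, 1 mean per group, two-sided, Benjamini-Hochberg over all genes). The biological coefficient of variation was 0.183. The procedure was tested on simulated data.

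The receptors and the lists were chosen with earlier results of these data known. Named besides the 7 receptors were their closest tested relatives, family members and chromosome neighbours, and receptors at their bounds. Also named were the 5 receptors and 5 other genes most alike, of which 2 are given, and called transduction genes. Relatives come from coding sequences aligned with MAFFT 7.526, in place of the protein identity first planned, over the 1098 intact receptors that had one. The identity bands and the values over all pairs drew on the 865 of these that were tested. Olfr1058, 83.0% identical to Olfr1047, and Olfr888, 88.5% identical to Olfr881, were the closest to these but had too few counts to be tested. GRCm38 gene order served for neighbours, and no coordinates are printed since the builds differ. Intervals for ratios cover counting error only. Same-numbered libraries of A+D and A&D had correlations of deviations of -0.43, -0.27 and 0.01, and those of O+C and O&C of -0.03, -0.07 and -0.13, so the numbers were not used to pair libraries.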

Additional observations from a re-analysis of the deposited data

Results flagged for a closer look

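The receptors Olfr875 and Olfr904, close to the 7 in sequence, differed between A&D and A+D by the edgeR test of that difference itself. Olfr875, the gene nearest in sequence to Olfr874, stood 2.07 higher on the log2 scale in A&D (SE 0.39, adjusted p = 0.0404, edgeR). Its 3 A&D libraries were above its 3 A+D libraries, as was so for 3.74% of all genes. Olfr904, which is 72.5% identical to Olfr922, stood 2.09 higher (SE 0.37, adjusted p = 0.0251, edgeR), at 6.67, 6.37 and 5.34 CPM in A&D against 1.59, 1.82 and 0.897 CPM in A+D. Leaving out any A+D library, A&D 1 or A&D 2 removed the call of Olfr875, with an adjusted p of at most 0.353. Leaving out any A&D library, A+D 1 or A+D 3 removed that of Olfr904, with an adjusted p of at most 0.175. Under other settings the call of Olfr875 was also lost with a replicate block (adjusted p = 0.101, edgeR). It was lost too with TMM on receptors (0.107), a fit of the compared groups alone (0.287) and without the libraries low in Obp2a. The call of Olfr904 was lost in the last 3 of these (0.0974, 0.0871 and 0.137), but not with the block.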

How the results depend on the processing

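The settings tried were DESeq2, 3 other library scalings, no count filter, a replicate block, a term for low Obp2a, leaving out those libraries, fitting only the groups compared, and leaving out each replicate. With each replicate left out, the count of the 7 receptors called stayed at 0 for A&D against A+D, for O&C against O+C and for the interaction. With no count filter it was 2 (Olfr1026 and Olfr874), 1 (Olfr1377) and 2 (Olfr1377 and Olfr1026), and the cause was not tested. Without the libraries low in Obp2a, 5 receptors at least 80% identical to one of the 7 were called in A&D in place of 8, with fewer samples in the fit. The replicate block called 0 of the 7 in either delivery comparison and in the interaction, and 7 of these relatives, and with it the difference of Olfr875 between A&D and A+D had an adjusted p of 0.101. The count of all genes called higher in A&D against A+D ran from 10 to 138 over these settings. For O&C against O+C it ran from 0 to 114 higher and from 0 to 90 lower, and for the interaction from 0 to 78 higher and from 0 to 126 lower.

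Signs that changed belonged to differences without a call, and each range is over fits with a library left out. For A&D against A+D, Olfr881 ran from -0.50 (without A&D 1) to 1.02, and was -0.96 without the libraries low in Obp2a. For O&C against O+C, Olfr1047 ran from -0.53 to 1.09 (above 0 without O+C 1 or O&C 3) and Olfr874 from -0.29 to 0.11 (above 0 without O+C 2, O+C 3 or O&C 3). Olfr874 was 0.00526 with a term for low Obp2a and 0.0300 without these libraries. Over Control, Olfr877 ran from -0.19 (without A+D 2) to 0.49 in A+D and from -0.25 (without A&D 2) to 0.82 in A&D, and was -0.20 in A+D without the libraries low in Obp2a. Olfr1030 was -0.12 in A+D and -0.0876 in A&D without these. Olfr921 ran from -0.15 to 0.00525 (without Control 2) in A+D and was 0.098 with receptor scaling. Depth limits Olfr1047, Olfr922 and Olfr881, with 14, 13 and 28 counts in all Control libraries together.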
